A study of Triticum aestivum with 2 samples.

Results

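The proteins of the small (30S) subunit of the chloroplast ribosome were read by 15 of the 61115 wheat probe sets of the array. These were the probe sets that the study's lists of detected transcripts describe as a chloroplast 30S ribosomal protein, among them S2, S7, S12, S15, S16 and S18. Of the 15, 13 came from the list of candidate sense-antisense transcript pairs, and 2, both for S2, came from the list of potentially antisense-specific transcripts. A listed probe set needed a Present call and an RMA value over the bioB control on the same arrays that are described here. The members were thus selected on both signals. All were chosen for a bright WT signal, the 13 for a bright 3'IVT signal as well, and the S2 probe sets for missing the 3'IVT criterion, so that the low 3'IVT values of S2 are partly fixed by the choice. Every value below is a description without a test.

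The WT assay and the 3'IVT assay were each hybridized once to the Wheat Genome Array, both from 1 mix of total RNA. Equal amounts of RNA from 5 tissues of the spring wheat 'Chinese Spring' went into the mix: seed germinated in the dark, and greenhouse-grown shoots, flag leaves, spikes before anthesis and spikes after anthesis. In the WT assay, cDNA was primed with random hexamers and the labeled strand had the orientation of the mRNA, so that the array's probes were meant to capture only targets from antisense transcripts. In the 3'IVT assay, priming was with oligo(dT) and the labeled cRNA was complementary to the mRNA, which reads the sense strand. Neither assay had a replicate array, which leaves the values without an error between samples and limits their precision. Tissues cannot be separated in the mix, and fewer green cells and less RNA per cell cannot be told apart. Markers of green tissue were present on both arrays, though those measured here are in the list of pairs, which already asked for a bright signal in each. The chlorophyll a/b binding protein (Ta.20639.3.S1_a_at) had log2 signals of 15.67 in the WT assay and 14.17 in the 3'IVT assay, and the RUBISCO small subunit had 16.82 and 15.38 (Ta.2752.2.S1_x_at) and 16.19 and 15.57 (Ta.2752.3.S1_x_at).

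Chloroplasts make part of their own proteins on ribosomes of the bacterial type. The small subunit holds the 16S rRNA and decodes the mRNA, and its proteins come partly from plastid genes and partly from nuclear genes. In grasses the genes of the 6 proteins described here (rps2, rps7, rps12, rps15, rps16 and rps18) lie on the plastid genome, where many genes are transcribed together as polycistronic units and transcripts mostly lack the long poly(A) tails of nuclear mRNAs. The platform annotation gives no gene symbol for these probe sets, so the protein names rest on the study's BLASTX descriptions. The RefSeq table used here also lists mitochondrial genes named rps2, rps7 and rps12, and whether the probes tell plastid from mitochondrial or nuclear copies was not tested.

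Values are log2 of the deposited MAS5 signal. Because the assays differ in labeling, each value was read against the lowest of the 9 bioB probe sets of its own array, at a log2 signal of 15.19 in the WT assay and 9.69 in the 3'IVT assay. The distance above it is called the height, in log2 units. The spike-in controls, bioB, bioC, bioD and creX in rising amounts, gave a ladder with medians of 16.14, 17.29, 18.49 and 19.61 in the WT assay and of 10.13, 11.60, 13.50 and 15.10 in the 3'IVT assay. As a measure of spread, the pooled SD between probe sets for the same control region was computed over 27 of these probe sets and 9 regions. It was 0.26 log2 units in the WT assay and 0.32 in the 3'IVT assay. Probes bind with different strength, and the order of the signals need not be that of the transcripts' amounts.

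On this scale all 15 members were above the threshold in the WT assay, as were 0.367% of all wheat probe sets, and 14 were above it in the 3'IVT assay, against 17.3%. The 14 were above both thresholds, against 0.208% of all wheat probe sets. These counts follow from the choice of the members. The exception was the S2 probe set TaAffx.128946.1.A1_at, whose 3'IVT height was -0.040. The faintest member of the WT assay was an S7 probe set at a height of 0.53. Of the probe sets of the same design sequences that are in neither list, TaAffx.3720.7.S1_at lay just above the WT threshold, at a height of 0.48, and TaAffx.128617.16.S1_at just below it, at -0.43. On both arrays all 15 members exceeded the brightest of 63 of the 64 reporter gene probe sets (for genes that are foreign to wheat), as did 3.26% of wheat probe sets in the WT assay and 44.9% in the 3'IVT assay. The one left out lay in the range of the creX spike-in, at log2 signals of 19.58 in the WT assay and 15.33 in the 3'IVT assay, and 0 and 1 of the 15 members exceeded it. The median height of the members was 3.39 in the WT assay and 1.67 in the 3'IVT assay, beside -7.18 and -3.07 for all wheat probe sets.

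The member probe sets fell into a bright and a faint set in the WT assay. A bright set of 11 probe sets, among them all those of S12, S15 and S18 and 1 of S2, had log2 signals of 17.93 to 19.56. The 4 others, for S7, S16 and the second of S2, lay within 0.14 log2 units of each other, at 15.72 to 15.86. No member fell in the 2.07 log2 units between the sets, a 4.21-fold step in signal, and the next largest gap between neighbouring members was 0.77. The split was drawn after the values were seen. All 11 of the bright set exceeded the median of bioC, which 0.139% of all wheat probe sets did, and 9 exceeded the median of bioD, against 0.0933%. The 4 of the faint set lay under the median of bioB, which 11 members and 0.236% of all wheat probe sets exceeded. No member reached the median of creX, above which were 0.00818%. By their medians the order was S12 (18.76), S18 (18.62), S15 (18.43), S2 (17.28), S16 (15.74) and S7 (15.74). The gaps between S12 and S18 (0.14) and between S18 and S15 (0.19) were under the spike-in SD of 0.26, as was the gap of 0.01 between S16 and S7. The probe sets of S2 lay on both sides of the empty range and overlapped those of S15. Without its A-lettered probe set, which may read the other strand, the WT height of S2 was 0.67 instead of 2.09, in the faint set.

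**Figure D1:**
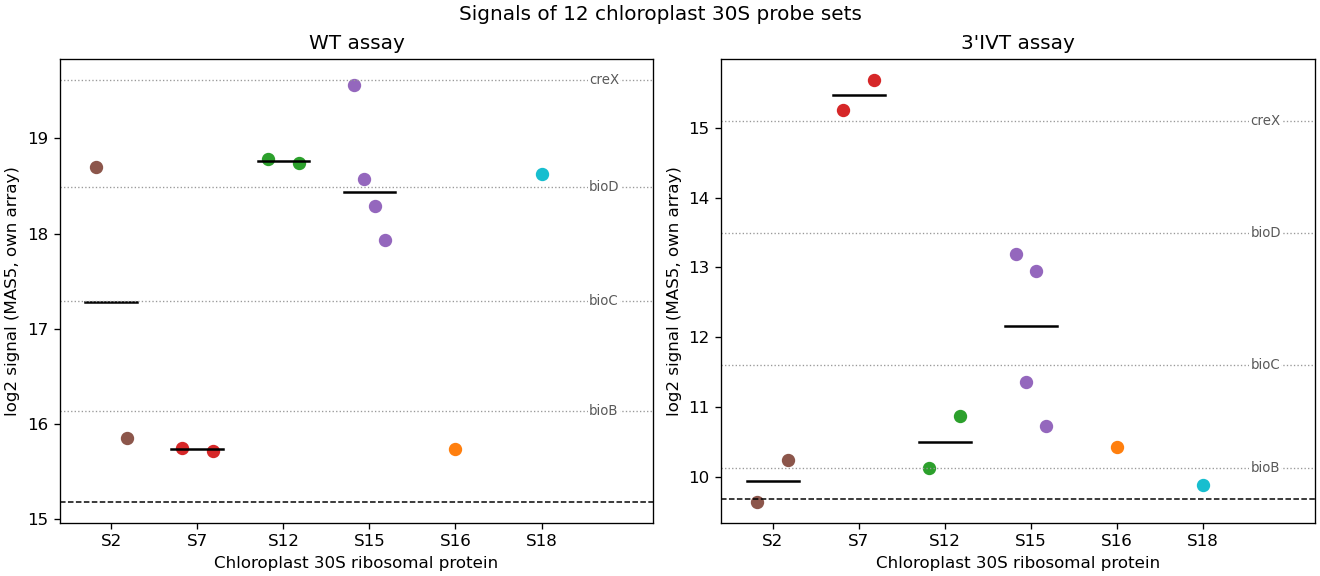
Log2 MAS5 signal (y axis) of each of 12 probe sets (points) by protein, for 6 proteins (x axis), in the WT assay (left) and the 3'IVT assay (right). Black bars are medians of proteins with several probe sets, the dashed line is the lowest bioB probe set, and dotted lines are the medians of the spike-in controls. S7 stands at the top of the 3'IVT panel (15.26 and 15.68) and at the bottom of the WT panel (15.75 and 15.72).

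The 3'IVT assay gave another order, in which S7 stood alone. The members spanned 6.03 log2 units, a 65.2-fold range of signal, and in the WT assay 3.84 log2 units and 14.3-fold. The choice of bright members limits both ranges at the lower end. At the upper end, the brightest of all wheat probe sets had heights of 4.55 in the WT assay and 5.99 in the 3'IVT assay. The study held the values of its 2 assays not to be comparable, so the widths are not read as a difference. The medians were 15.47 for S7, 12.16 for S15, 10.50 for S12, 10.44 for S16, 9.95 for S2 and 9.89 for S18. S7 was 3.31 log2 units above S15, with no overlap of their probe sets, where the pooled SD between probe sets of the same protein was 0.80. S15 was 1.66 above S12, with overlap. Without probe sets that share probes with other sequences, which leaves 1 of the 4 of S15, the 3'IVT heights of S15 and S12 were 1.67 and 0.81. S12 and S16 also overlapped, as did S2 and S18. The gaps of 0.06 from S12 to S16 and from S2 to S18 were under the spike-in SD of 0.32. Against the 3'IVT ladder 12 members were above the median of bioB (13.9% of all wheat probe sets), 6 above that of bioC (5.65%), and both S7 probe sets, alone among the members, above those of bioD (1.18%) and creX (0.0687%).

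S7 starts the folding of the head of the small subunit by binding 16S rRNA, as known from Escherichia coli. TaAffx.3720.1.S1_at had log2 signals of 15.72 in the WT assay and 15.68 in the 3'IVT assay, and TaAffx.3720.4.S1_s_at had 15.75 and 15.26. In the 3'IVT assay the first was the brightest of all 61115 wheat probe sets and the other held rank 24. In the WT assay they held ranks 175 and 170, at the bottom of the members with S16 (172). The S7 probe sets differed by 0.03 log2 units in the WT assay and by 0.42 in the 3'IVT assay, where the spike-in SD was 0.32. The suffix s of TaAffx.3720.4.S1_s_at marks probes shared with other sequences, so they may read the same transcripts.

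S12 lies at the decoding site, where codon and anticodon meet, and its plastid gene is split, with the pieces joined by trans-splicing. Its probe sets come from the same design cluster as those of S7, a design cluster being the group of array sequences that share the number after TaAffx. TaAffx.3720.2.S1_at had log2 signals of 18.79 in the WT assay and 10.13 in the 3'IVT assay, and TaAffx.3720.5.S1_at had 18.74 and 10.87. The S12 pair held WT ranks 45 and 46 and 3'IVT ranks 8485 and 5486. The median of S12 was thus 3.03 log2 units above that of S7 in the WT assay (8.14-fold) and below it in the 3'IVT assay (a difference of -4.97, 31.3-fold). In neither assay did the probe sets of the 2 proteins overlap. The size of the WT step depended on the normalization. Quantile normalization, which gives both arrays the same distribution of values, put the WT heights of S12 and S7 at 2.14 and 0.35, a distance of 1.79. The study left normalization out because its arrays had different labeling. The 3' part of the S12 gene and the S7 gene are neighbours on the plastid genome.

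S18 sits on the platform of the small subunit, beside the path of the mRNA. It had a single probe set, TaAffx.107897.1.S1_at, with log2 signals of 18.62 in the WT assay and 9.89 in the 3'IVT assay. In the WT assay its height was 3.44 and above the median of bioD, while in the 3'IVT assay it was only 0.20 above the threshold and under the median of bioB.

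S15 binds 16S rRNA early in the assembly of the central domain. It had the most probe sets, 4, and the widest spread in the 3'IVT assay. TaAffx.128617.18.S1_x_at was the brightest member in the WT assay, with a log2 signal of 19.56 (rank 8), and had 13.20 in the 3'IVT assay. TaAffx.128617.5.S1_at had 18.58 in the WT assay and 11.37 in the 3'IVT assay. TaAffx.128617.17.S1_s_at had 18.29 in the WT assay and 12.96 in the 3'IVT assay, and TaAffx.128617.3.S1_x_at had 17.93 and 10.74. From the brightest to the faintest, these probe sets differed by 1.63 log2 units in the WT assay and by 2.46 in the 3'IVT assay, well over the spike-in SD. TaAffx.128617.5.S1_at alone among them lacks the suffix (s or x) that marks probes shared with other sequences, so the others may read the same transcripts and do not count as separate observations.

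S16 binds the 5' domain of 16S rRNA during assembly. Its single member, TaAffx.4142.2.S1_at, had log2 signals of 15.74 in the WT assay (rank 172) and 10.44 in the 3'IVT assay (rank 7118). It was as faint as S7 in the WT assay, but in the 3'IVT assay it lay between the S12 probe sets. S2, on the solvent side of the subunit, is among the last proteins to join. Its probe set TaAffx.128946.1.A1_at had 18.70 in the WT assay and 9.65 in the 3'IVT assay, whereas TaAffx.128946.4.S1_at had 15.86 and 10.25. The difference of 2.85 log2 units in the WT assay (7.20-fold) was the largest between probe sets of 1 protein, while in the 3'IVT assay they differed by 0.60. The letter before the last number of a name gives the orientation of the design sequence, A for antisense and S for sense. If it is right, TaAffx.128946.1.A1_at would report sense transcripts in the WT assay and TaAffx.128946.4.S1_at antisense transcripts, and their signals would belong to opposite strands. It is the only A-lettered probe set among the 15, where the letter stands on 17.4% of all wheat probe sets.

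Between probe sets of the same protein the pooled SD was 0.83 log2 units in the WT assay and 0.80 in the 3'IVT assay (13 probe sets of 5 proteins). Both are larger than the spike-in SD. Without S2 the WT value was 0.46 and that of the 3'IVT assay 0.84 (11 probe sets of 4 proteins). The SD of the 7 protein medians was 1.37 in the WT assay and 1.97 in the 3'IVT assay. Over the 15 members the WT and 3'IVT log2 signals had a Pearson's r of -0.36 and a Spearman's rho of -0.25, against 0.30 and 0.28 over all wheat probe sets. The S7 probe sets combine the brightest 3'IVT signals of the members with WT signals in the faint set, and so weigh on both coefficients. No coefficient was computed without S7, so the sign need not hold for the other members. The members share arrays, design clusters and probes, and were chosen by signal.

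**Figure D2:**
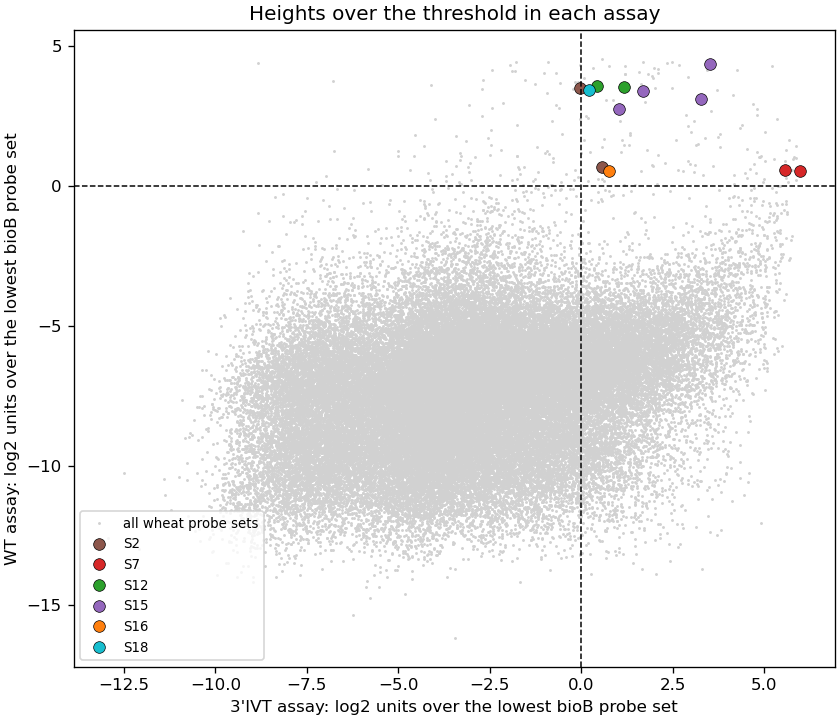
Height over the lowest bioB probe set in the 3'IVT assay (x axis) and the WT assay (y axis), both in log2 units, for all 61115 wheat probe sets (grey) and 12 members of 6 proteins (coloured by protein). Dashed lines mark the thresholds. The bright set runs along WT heights of 2.74 to 4.37 and the faint set of 4 lies at 0.53 to 0.67, with S7 at the far right.

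The 12 probe sets of S2, S7, S12, S15, S16 and S18 fall into 5 design clusters, which hold 32 probe sets of the array. Of the 20 that are not members, 6 (30%) were above the WT threshold, against 0.367% of all wheat probe sets, and 7 (35%) were above the 3'IVT threshold, against 17.3%. The 6 were 4 of unknown function, 1 with a described function, and 1 that is in neither list. The clusters were picked for holding a bright member, and sequences of 1 cluster can share probes, so these shares are no separate evidence.

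In the cluster of S15, chain 5 of the plastid NAD(P)H-quinone oxidoreductase (TaAffx.128617.1.S1_x_at) had log2 signals of 17.52 in the WT assay and 12.78 in the 3'IVT assay, and an unknown transcript (TaAffx.128617.14.S1_x_at) had 18.14 and 7.55. The 7 other probe sets of that cluster, in neither list, were under the WT threshold, with heights of -8.11 to -0.43, and 2 of them were above that of the 3'IVT assay.

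In the cluster of S16 the member was not the brightest. TaAffx.4142.1.S1_at and TaAffx.4142.3.S1_at, both of unknown function, had log2 signals of 18.92 and 18.90 in the WT assay and of 9.52 and 9.60 in the 3'IVT assay. They were 3.18 and 3.16 log2 units above the S16 probe set in the WT assay (9.05-fold and 8.94-fold), and below it in the 3'IVT assay (differences of -0.91 and -0.83). The WT step between these unknown sequences and S16 was about that between S12 and S7, at 3.03. In the cluster of S7 and S12, the unknown TaAffx.3720.10.S1_at had 18.67 in the WT assay and 9.46 in the 3'IVT assay, near the values of S12. TaAffx.3720.7.S1_at, which is in neither list, had 15.67 in the WT assay and 14.46 in the 3'IVT assay, so that TaAffx.3720.1.S1_at was 0.05 and 1.22 log2 units above it. Of the 8 probe sets of the cluster, 3 thus had S12-like WT values and 3 had S7-like ones. TaAffx.3720.3.S1_at (13.41 in the WT assay and 12.98 in the 3'IVT assay) and TaAffx.3720.8.A1_at (9.26 and 2.47) were fainter than both groups in the WT assay.

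The cluster of S2 had its 2 remaining probe sets under the WT threshold, at heights of -2.02 (TaAffx.128946.2.S1_at) and -2.77 (TaAffx.128946.3.S1_at), and above the 3'IVT threshold by 0.03 and 0.66. In the cluster of S18, TaAffx.107897.2.S1_at had a log2 signal of 13.04 in the WT assay and 6.72 in the 3'IVT assay, and the S18 member was 5.58 and 3.17 log2 units above it.

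**Figure D3:**
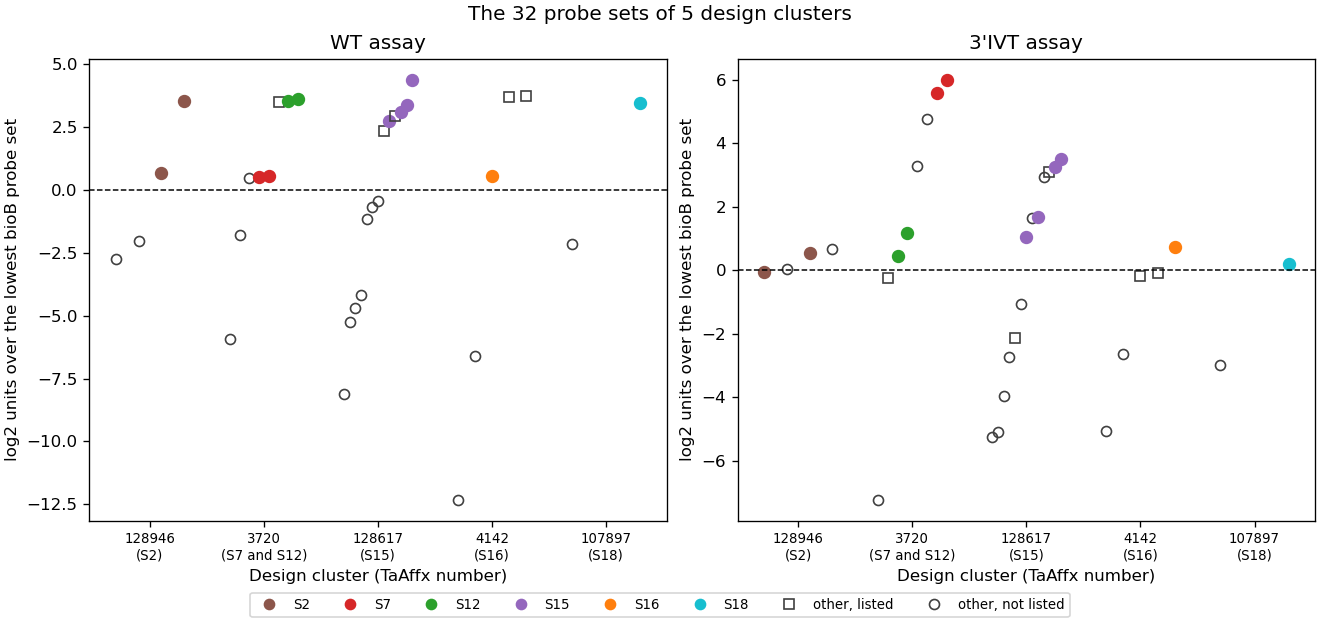
Height over the lowest bioB probe set in log2 units (y axis) of the 32 probe sets of 5 design clusters (x axis, with the member proteins), in the WT assay (left) and the 3'IVT assay (right). Filled points are 12 members by protein, open squares are other probe sets in the study's lists, and open circles are in neither list. Points are spread sideways within a cluster. In the WT panel 18 of the 32 are above the dashed threshold.

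The large (50S) subunit was read by 7 listed probe sets, for L2, L14, L23 and L33 of the chloroplast. All 7 were above both thresholds, as the lists required a bright signal, with a median height of 2.67 in the WT assay and 2.28 in the 3'IVT assay, beside 3.39 and 1.67 for the 15 of the 30S subunit. WT log2 signals of the 50S proteins ran from 15.97 to 18.63 and those of the 30S proteins from 15.72 to 19.56, so that the ranges overlapped. Of the 7, 3 carry the letter A (L14, L33 and 1 of L2), against 1 of 15 for the 30S subunit. The 3 had WT heights of 3.02 to 3.44, and the S-lettered ones of 0.78 to 2.67. L2, which lies at the site of peptide bond formation, spanned much of that range, with 18.63 in the WT assay and 13.39 in the 3'IVT assay at TaAffx.128896.8.A1_at, and 15.97 and 14.42 at TaAffx.128896.3.S1_at. L33, whose gene is next to that of S18 on the plastid genome, had 18.21 in the WT assay and 11.44 in the 3'IVT assay (TaAffx.6593.1.A1_at). S18 was 0.41 log2 units above it in the WT assay and below it in the 3'IVT assay (a difference of -1.54). The L33 probe set carries the letter A and that of S18 the letter S, so their signals may belong to opposite strands. The same holds for the L2 probe sets given here. L14 had 18.28 and 10.55 (TaAffx.128896.6.A1_at) and L23 had 16.00 and 11.97 (TaAffx.128896.23.S1_at). A probe set in neither list, for a gene with the RefSeq synonyms CL9 and RPL9 (Ta.14183.1.S1_at), had 10.53 in the WT assay and 12.04 in the 3'IVT assay, at heights of -4.65 and 2.35. It was thus under the WT threshold, and whether it reads the L9 of the chloroplast was not tested.

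Proteins of the cytosolic (40S) ribosome, which are encoded in the nucleus, were in the lists as S3a (Ta.28603.1.A1_at) with log2 signals of 16.31 in the WT assay and 7.21 in the 3'IVT assay, and as S9 (Ta.24981.1.S1_at) with 15.71 and 8.50. Both are from the list of potentially antisense-specific transcripts, chosen for a bright WT signal and a missed 3'IVT criterion. That they were above the WT threshold alone, with WT heights of 1.13 and 0.52, is largely fixed by this choice. The S3a probe set carries the letter A and may read the other strand. By its synonyms in the RefSeq table RPS29, in neither list, had 2.81 and 7.99 (Ta.24254.3.S1_x_at) and 9.75 and 8.99 (Ta.30687.2.S1_x_at), under both thresholds.

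**Figure D4:**
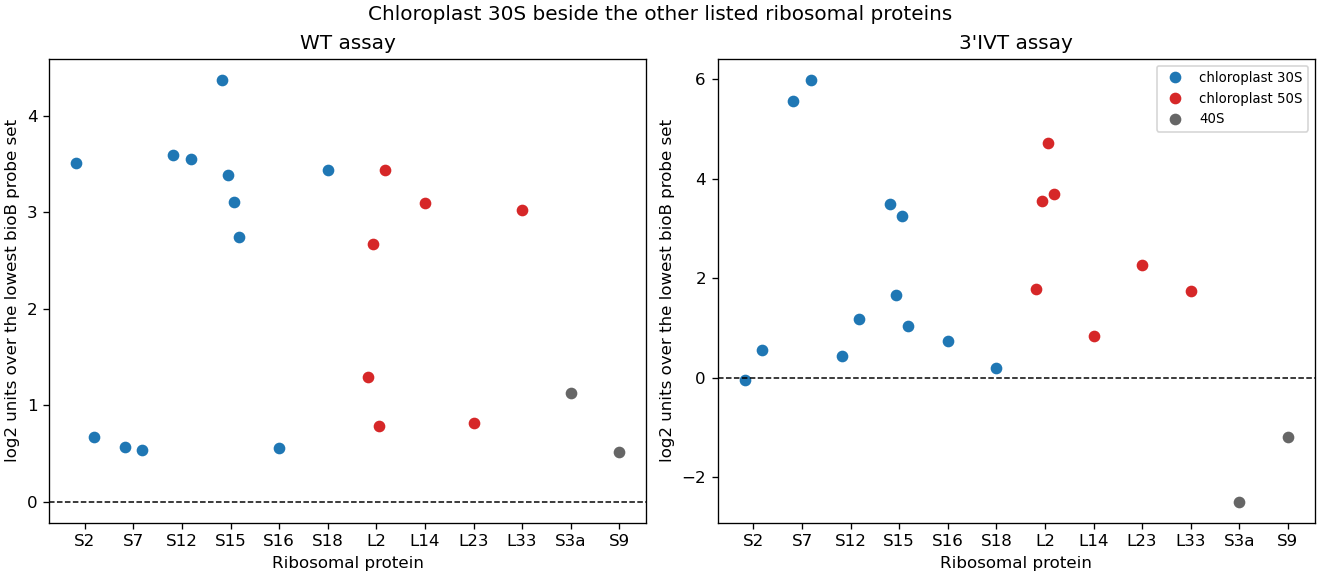
Height over the lowest bioB probe set in log2 units (y axis) of each probe set by ribosomal protein (x axis), in the WT assay (left) and the 3'IVT assay (right). Blue points are 12 chloroplast 30S probe sets, red points the 7 of the chloroplast 50S subunit and grey points the 2 of the cytosolic 40S subunit. The 40S probe sets are above the WT threshold and below that of the 3'IVT assay, at 3'IVT heights of -2.48 and -1.19. They come from the list of potentially antisense-specific transcripts, which was chosen for this pattern.

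The brightest WT probe set of each protein was set beside the 92 other listed probe sets with a described function, by Euclidean distance over the log2 signals of the 2 arrays. For S2, S12 and S18 the nearest were the same probe sets, ATP synthase (TaAffx.7291.1.S1_at, 18.64 in the WT assay and 9.65 in the 3'IVT assay) and NADH dehydrogenase (TaAffx.124056.1.S1_at, 18.95 and 10.06), at distances of 0.07 to 0.50. The S2 probe set used here was the A-lettered TaAffx.128946.1.A1_at. The others named carry the letter S, so the S2 signal may belong to the opposite strand. S7 was nearest to RUBISCO activase (Ta.27660.1.S1_at, 15.71 and 15.37, distance 0.13) and to a RUBISCO large subunit probe set (TaAffx.128414.219.S1_x_at, 15.47 and 15.28, distance 0.28). S15 was nearest to a putative senescence-associated protein (TaAffx.128418.24.S1_at, 19.36 and 13.12, distance 0.21) and then to maturase K, a splicing factor of the plastid (TaAffx.134856.1.S1_x_at, 19.11 and 12.61, distance 0.74). Among the 92, which leave out the members, S16 had no close neighbour. Its nearest were the cytochrome c biogenesis protein ccsA (TaAffx.4544.1.S1_at, 16.67 and 10.99) at 1.08 and an ATP synthase probe set (TaAffx.4530.2.S1_at, 16.86 and 10.32) at 1.13. The S2 member TaAffx.128946.4.S1_at (15.86 and 10.25) was nearer to S16 (15.74 and 10.44).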

How the data were processed

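Signal intensities were deposited by the authors as 1 linear value per probe set and array, made with MAS5 per the labels. MAS5 scales each array on its own. The 2% trimmed means of the 61290 values were 500.2 in the WT assay and 500.3 in the 3'IVT assay. Such a factor is the same for all values of an array, so it cancels in a height. The study's lists rest on RMA values and Present calls, which were not used here. The log2 of each intensity was taken, and 111 Affymetrix controls and 64 reporter gene probe sets were left out of counts. Of the reporter genes 1, in the range of creX, was not used as background.

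Putative functions and list membership came from the study's own lists, whose values were not read. All members are named, with probe sets of the same design clusters that are listed or near a threshold, the listed 50S and 40S proteins, and the 2 nearest probe sets of each protein, leaving out unknown and hypothetical ones. Of the 7 proteins, 1 (3 probe sets) is not reported here by itself, and counts, medians and ranges over the 15 members include it. The members and lists were chosen with earlier results of these data known. The platform annotation gives 1 gene symbol for 1273 probe sets, of which 1272 were found in the RefSeq gene table (assembly IWGSC CS RefSeq v2.1), from which names were taken and no coordinates. Alternatives were other thresholds, quantile normalization, other lists, 1 value per cluster, and leaving out shared or A-lettered probe sets. Scripts ran in Python 3.11.15 (pandas 2.3.3 and numpy 2.4.6 for the tables, matplotlib 3.10.9 for drawing, and scipy 1.17.1), and counts and SDs were tested on simulated data.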

Additional observations from a re-analysis of the deposited data

How the results depend on the processing

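No paired analysis was possible because each assay has 1 array. Of the 15 members, 11 were above the threshold of the WT assay, 12 and 10 above that of the 3'IVT assay, and 8 and 8 above both, when the threshold was the median and the highest bioB probe set. The median height was then 2.44 and 1.98 in the WT assay, and 1.24 and 0.84 in the 3'IVT assay. With the highest of the 63 reporter gene probe sets as the threshold it was 6.81 in the WT assay and 4.35 in the 3'IVT assay. With the median bioB threshold the heights became negative for S7 (-0.41) and S16 (-0.40) in the WT assay and for S2 (-0.18) and S18 (-0.24) in the 3'IVT assay. With the highest bioB threshold they were -0.86 and -0.85 in the WT assay, and -0.58 for S2, -0.032 for S12, -0.095 for S16 and -0.64 for S18 in the 3'IVT assay.

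Quantile normalization gave a median WT height of 2.03, and moved the distance from the highest to the lowest protein to 1.79 in the WT assay and 7.64 in the 3'IVT assay, against 3.03 and 5.57. Without shared probe sets 8 members remain, of which 8, 7 and 7 were above the WT, the 3'IVT and both thresholds, and their median 3'IVT height was 0.65. With 1 value per protein and cluster all 7 were above both thresholds (7 in each assay), with a median 3'IVT height of 0.81. Of 108 heights of single proteins under these alternatives, 58 moved by less than the spike-in SD, 40 by more, and the 10 above changed sign. All 10 changes of sign and most of the 40 came from the other thresholds. A new threshold shifts all proteins of an array by the same amount and leaves the distances between them unchanged. Quantile normalization moved 6 heights, and leaving out shared or A-lettered probe sets moved 1 each. The cause of the differences between proteins was not tested.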
